A study of Danio rerio with 9 samples.

Results

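Blood endothelial cells line the vessels of the heart, and endocardial cells line its chambers. The genes described here are 42 symbols that mark these linings or act in them: junction and adhesion proteins, clotting factors, transcription factors, caveolar proteins, ligands with their receptors, and a group of other endothelial proteins. They were listed by name, without a threshold on any value, when earlier results of these data were known. A row of the count table was taken as a member when its symbol in the gene name table was on the list, ignoring case, and a symbol absent from that table was tried again without its final a or b. In this way 37 of the 42 symbols led to 41 of the 16575 rows. No identifier was found for *pecam1*, *etv2*, *eng* and *aqp1a.1*, which are not analysed here, and *gata2b* had an identifier but no row. The name table gives a single *fli1* row for *fli1a* and *fli1b*, and pairs of rows for *cldn5*, *sele*, *cavin1*, *cavin2*, *efnb2* and *tspan18*. In all, 13 of the 41 rows share their symbol with another identifier, so that they are given with it. The division of reads between such copies was not measured and is uncertain. For *cavin1b*, *cavin2b*, *efnb2a* and *tspan18b*, a single listed symbol led to 2 rows, so a row of each pair may belong to a paralog that was not listed.

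The libraries came from ventricles of zebrafish at 5 months of age. Control fish were vegfc(+/+) and vegfd(+/+). Mutant fish were vegfc(hy-/-) and vegfd(-/-), which are homozygous for a hypomorphic allele of *vegfc* and for a mutation of *vegfd*, so that some function of *vegfc* can remain. There were 5 control libraries, numbered 1 to 5, and 4 mutant libraries, numbered 6 to 9. The sources do not say whether a library holds 1 ventricle or several, and p-values therefore measure the spread between these libraries.

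As background, endothelial cells hold together through VE-cadherin and claudins, and store von Willebrand factor, which catches platelets or, in fish, thrombocytes at a wound. Factors of the ETS family set their identity, and blood flow over the cell surface raises factors of the Klf2 type. Endocardial cells depend on Nfatc1 where valves form. Arterial and venous cells carry the paired surface proteins ephrin B2 and EphB4. Vegfc and Vegfd regulate lymphatic growth, and the paper describes both as ligands of Vegfr3, the receptor encoded by *flt4*. It also cites a need for *vegfd* in the branching of arteries in zebrafish. The comparison of the listed genes asks whether blood endothelial and endocardial transcripts differed between the genotypes.

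Totals ranged from 23302636 to 33496006 counts per library, with overlap between genotypes. As a check of the labels, *vegfd* was lower in every mutant library than in any control, with means of 2.60 CPM in controls (SD 1.25, n = 5) and 0.368 CPM in mutants (SD 0.214, n = 4, edgeR adjusted p = 0.0195). The call was lost without mutant library 6 or 7, where the adjusted p reached 0.0611. Expression of *vegfc*, whose allele is hypomorphic, overlapped between genotypes, at 1.101 to 5.53 CPM in controls and 2.07 to 6.20 CPM in mutants (log2 fold change 0.35, edgeR adjusted p = 0.719), and so does not check the labels. CPM are counts relative to the library total after trimmed-mean (TMM) scaling. Control library 2 had the lowest total and 684 genes at 0 counts, against 69 to 127 in the other controls and 107 to 320 in mutants. Members were detected in every library, with mean counts per row from 15.9 to 66170. The cardiomyocyte genes *myl7* and *cmlc1* were abundant in every library, and so were the endothelial genes *cdh5* and *kdrl*.

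A single member of the blood endothelial and endocardial list passed the threshold, and fitted changes of the others went both ways. Changes beyond 1 on the log2 scale were fitted for 9 of the 41 rows, *vwf* among them, against 2332 of all 16575 rows. Those of *sele* and *icam3* turned on control library 2. By edgeR's quasi-likelihood test with adjustment over all 16575 rows, 1 of the 41 rows was higher in mutants (*vwf*) and 0 were lower. This share of 2.44% compares with a background of 3.34% of all rows called, made up of 2.13% higher and 1.21% lower. At an unadjusted p-value under 0.05 there were 12 rows (29.3%), 8 higher and 4 lower, against 20.9% of all rows. No overlap between genotypes was seen for 3 rows (7.32%), *vwf* and *nfatc1* on the higher side and *aplnrb* on the lower, against 10.5% of all rows (6.07% higher and 4.46% lower). Neither share of called or separated rows exceeded its background. The median log2 fold change of the 41 rows was -0.04, beside -0.01 over all rows, with 19 rows higher and 22 lower. For 21 rows the change was under 0.5 on the log2 scale in either direction (51.2%, against 66.5% of all rows). The median standard error of a member was 0.31 on the log2 scale, so that a difference of that size has a 95% interval that includes 0. In whole ventricles, fewer endothelial cells and less RNA per endothelial cell cannot be told apart.

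**Figure D1:**
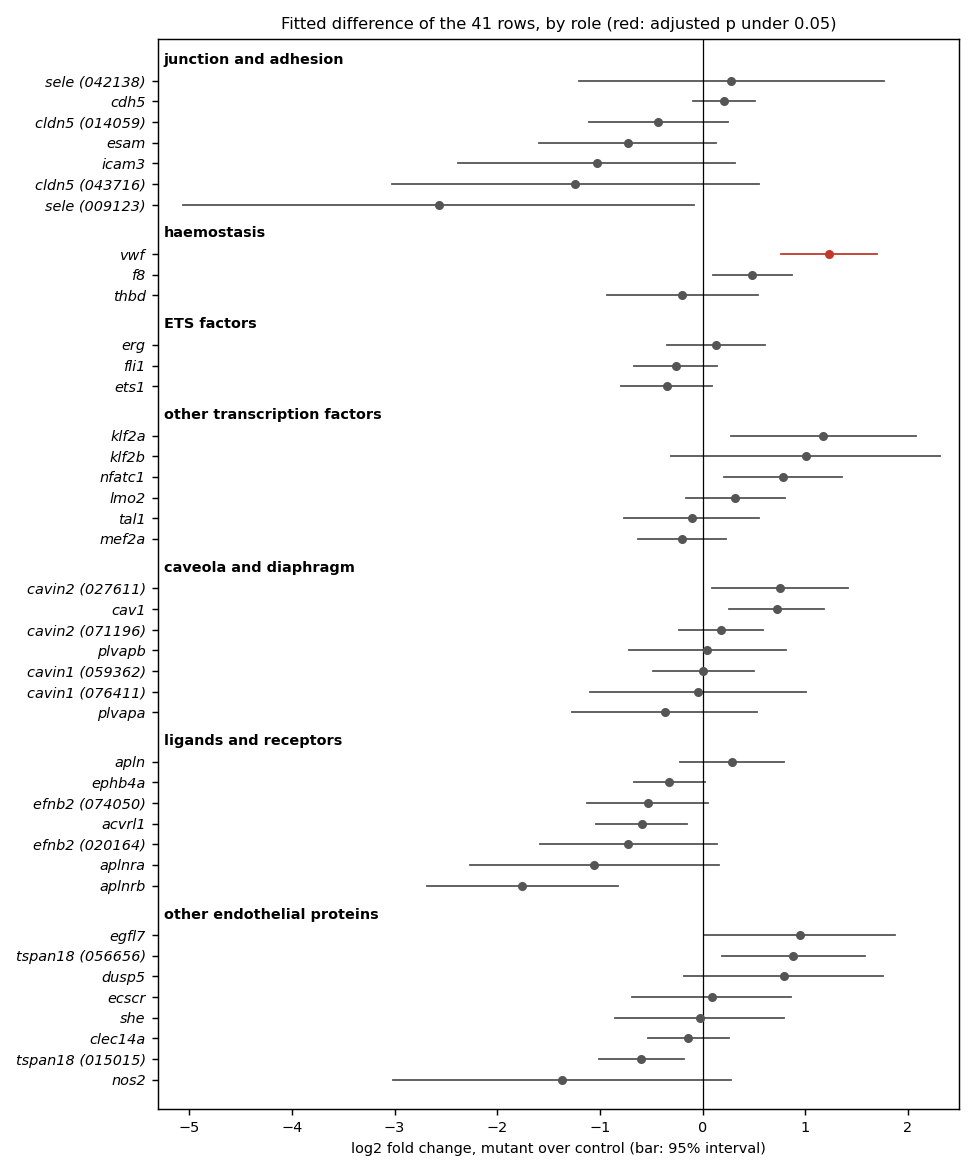
Fitted log2 fold change (mutant over control) of each of the 41 rows with its 95% interval from the edgeR quasi-likelihood fit, grouped by role. Only *vwf*, drawn in red at 1.23, had an adjusted p-value under 0.05, and the other rows fall on both sides of 0.

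Among the haemostasis genes, *vwf* (ENSDARG00000077231), which encodes the multimer that tethers thrombocytes to a damaged wall, rose in mutants. Its expression was 149.7, 141, 131, 115 and 82.4 CPM in control libraries 1 to 5 and 350.2, 277, 196 and 338 CPM in mutant libraries 6 to 9. Every mutant library lay above every control, the nearest being mutant 8 and control 1. Mean expression was 124 CPM in controls (SD 26.5, n = 5) and 290.2 CPM in mutants (SD 70.5, n = 4), a 2.34-fold difference. On the log2 scale this was 1.23 (SE 0.21, edgeR adjusted p = 0.0173). Without mutant library 9 the adjusted p-value was 0.0505, and over all alternatives it ranged from 1.43e-05 to that value.

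The level of *vwf* was also set against that of *cdh5*, the VE-cadherin gene that marks endothelium at large. Within each library, the log2 ratio of *vwf* to *cdh5* CPM was between -1.18 and -0.22 in controls and between -0.14 and 0.98 in mutants. The ratios of the genotypes thus did not overlap, with control 2 and mutant 8 closest. In fish, *vwf* is also carried by thrombocytes. The thrombocyte list, all of whose 7 rows were detected in every library, summed to between 49.0 and 110.5 CPM in controls and between 62.1 and 198 CPM in mutants, and 0 of its rows were called. Mutant library 6 was highest for both *vwf* and this sum, while mutants 7, 8 and 9 lay inside the control range of the sum. Most of the sum in mutant 6 came from the *thbs1* rows, at 89.2 and 75.9 CPM. Of the 7 rows, 4 had fitted changes above 0 and 3 below, with *itga2b* at -0.91 (edgeR adjusted p = 0.219). The part of thrombocytes in the *vwf* result was not tested.

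Coagulation factor VIII is made by endothelial cells in mammals and serves as a cofactor in clotting. The row named *f8* (ENSDARG00000101385) was at 1937, 2433, 1818, 1918 and 1229 CPM in controls 1 to 5 and at 2523, 2999, 2487 and 2426 CPM in mutants 6 to 9. Only control 2 reached the mutant range, and it exceeded mutant 9 alone. The change of 0.48 on the log2 scale (SE 0.17) was not called (edgeR adjusted p = 0.151). *thbd*, the gene for the anticoagulant receptor thrombomodulin, was at 1.47 to 4.11 CPM in controls and 1.53 to 2.51 CPM in mutants, so that the mutants lay within the control range. Its log2 fold change was -0.20, with a 95% interval from -0.93 to 0.54.

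**Figure D2:**
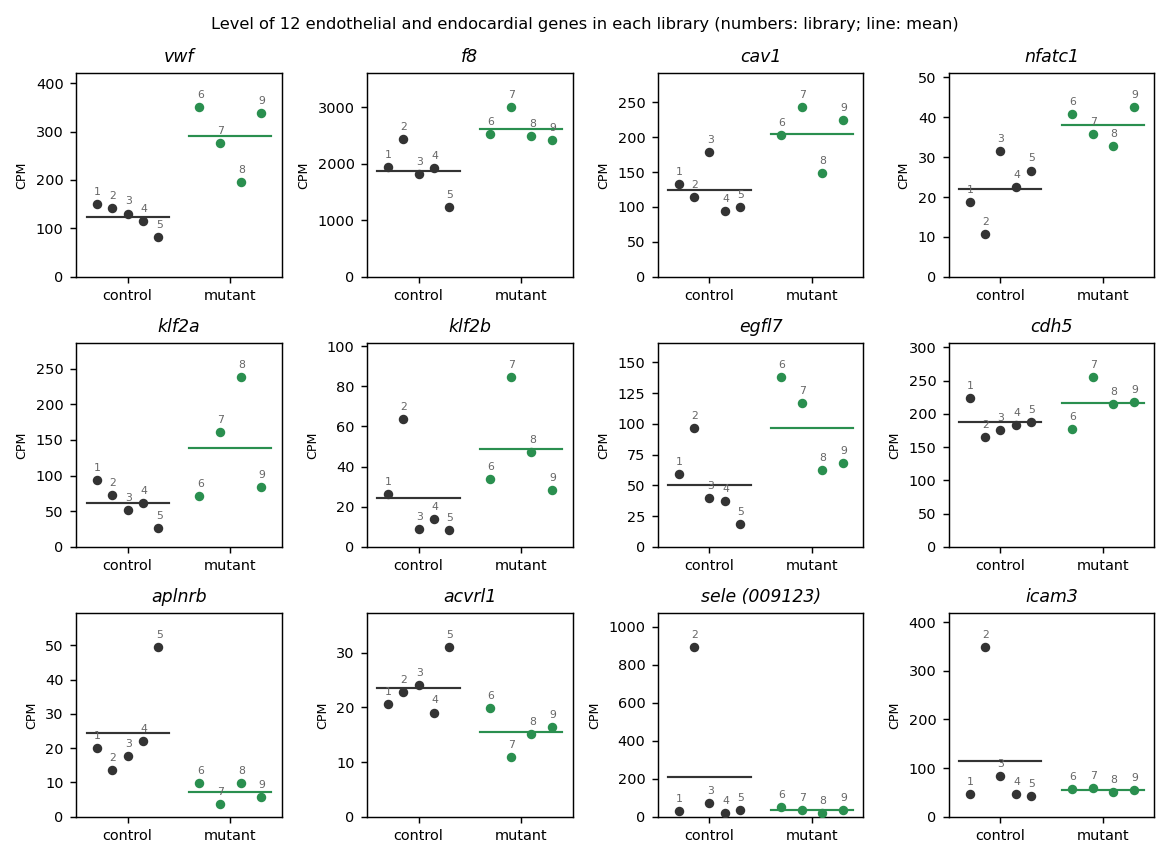
Expression in CPM of 12 members in each control library (1 to 5, black) and mutant library (6 to 9, green), with a line at the mean. *vwf*, *nfatc1* and *aplnrb* show no overlap between genotypes, and *sele* and *icam3* are far higher in control library 2 than in any other library.

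Junction and adhesion genes gave no call in either direction. The steadiest of them was *cdh5* (ENSDARG00000075549), at 225, 165, 176, 183 and 187 CPM in controls 1 to 5 and at 177, 255, 215 and 218 CPM in mutants 6 to 9. The genotypes overlapped widely. Mean expression was 187 CPM in controls (SD 22.6, n = 5) and 216 CPM in mutants (SD 32.0, n = 4). The difference of 0.21 on the log2 scale (SE 0.14) had a 95% interval from -0.09 to 0.51 and an edgeR adjusted p of 0.415. Both *cldn5* rows, for tight junction claudins, had fitted changes below 0. The more abundant row (ENSDARG00000014059) was at 3.33 to 9.95 CPM in controls and 3.28 to 6.19 CPM in mutants. The other (ENSDARG00000043716) held 1 to 29 counts per mutant library, and neither was called.

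The values of *sele*, *icam3* and *esam* turned on a single control library. E-selectin, encoded by *sele*, slows leukocytes on activated endothelium, and its main row (ENSDARG00000009123) was at 29.2, 892, 73.6, 21.3 and 35.7 CPM in controls 1 to 5. Mutants 6 to 9 were at 53.2, 36.8, 18.01 and 33.6 CPM, all below control 2 and control 3, with mutant 8 the lowest of the 9 libraries. The fitted change was -2.57 on the log2 scale (SE 1.12, edgeR adjusted p = 0.224) with all libraries and -0.17 without control 2. *icam3*, named after a human ligand of leukocyte integrins, was at 46.7, 349, 83.7, 47.1 and 43.6 CPM in controls and at 56.2, 59.0, 51.8 and 55.4 CPM in mutants. Its log2 fold change was -1.03 with all libraries and 0.0090 without control 2. *esam*, which encodes an adhesion molecule of endothelial junctions, stood at 75.7 CPM in control 2, against 19.5 to 26.6 CPM in the other controls and 16.9 to 23.2 CPM in mutants. Its log2 fold change went from -0.73 to -0.17 without control 2. The second *sele* row (ENSDARG00000042138) was at 0.252 to 1.75 CPM in controls and 0.314 to 2.83 CPM in mutants, and was not called.

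ETS transcription factors, which hold endothelial identity, showed the narrowest spread of changes of any group, from -0.35 to 0.13 on the log2 scale, and none of the 3 rows had an unadjusted p-value under 0.05. The *erg* row (ENSDARG00000077304) was at 28.6, 20.3, 18.4, 30.4 and 14.3 CPM in controls and at 24.7, 21.5, 26.9 and 25.2 CPM in mutants. All mutant values fell inside the control range, and the log2 fold change was 0.13 (SE 0.22, 95% interval -0.35 to 0.61, edgeR adjusted p = 0.781). The *fli1* row (ENSDARG00000054632) was at 74.1, 122, 75.0, 76.6 and 62.9 CPM in controls and at 69.1, 65.0, 70.3 and 70.0 CPM in mutants. Control 2 again was the highest, and the other 8 libraries lay close together. Its log2 fold change was -0.26 (SE 0.18, 95% interval -0.66 to 0.14, edgeR adjusted p = 0.448), and -0.07 without control 2. *ets1* was at 7.23 to 11.1 CPM in controls and 5.29 to 8.32 CPM in mutants.

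Transcription factors of flow response and of the endocardium had higher fitted levels in mutants, without passing the threshold. *nfatc1* (ENSDARG00000036168), a factor of endocardial cells in the forming valves, was at 18.7, 10.7, 31.4, 22.6 and 26.7 CPM in controls 1 to 5 and at 40.9, 35.7, 32.9 and 42.5 CPM in mutants 6 to 9. Every mutant library was above every control, by a narrow margin between mutant 8 and control 3. Control libraries averaged 22.0 CPM (SD 7.90, n = 5) and mutant libraries 38.0 CPM (SD 4.48, n = 4). The fitted change of 0.79 (log2, SE 0.26) was not called (edgeR adjusted p = 0.124), and its adjusted p ranged from 0.0526 to 0.238 over the alternatives.

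*klf2a* (ENSDARG00000042667), a flow-responsive factor of endothelium and heart valves, was at 93.5, 73.2, 51.5, 61.9 and 26.2 CPM in controls and at 71.0, 161, 238 and 83.6 CPM in mutants. Mutants 7 and 8 exceeded all controls, while mutants 6 and 9 fell inside the control range. Its fitted change was 1.18 on the log2 scale (SE 0.41, edgeR adjusted p = 0.137). Its paralog *klf2b* (ENSDARG00000040432) was at 26.3, 63.8, 8.91, 13.7 and 8.59 CPM in controls and at 33.8, 84.6, 47.2 and 28.5 CPM in mutants. Apart from control 2, all controls were below all mutants. With all libraries its log2 fold change was 1.005 (SE 0.59, edgeR adjusted p = 0.362), and without control 2 it was 1.76 (edgeR adjusted p = 0.0662). The within-library log2 ratio of *klf2a* to *klf2b* CPM ran from 0.20 to 2.53 in controls and from 0.93 to 2.33 in mutants, so that the balance of the paralogs overlapped.

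The remaining transcription factors of this group overlapped between genotypes. *lmo2* and *tal1*, which act together in blood and endothelial progenitors, had log2 fold changes of 0.32 and -0.11. *mef2a*, a factor of muscle and endothelium, had one of -0.20. None of these 3 rows had an unadjusted p-value under 0.05.

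Caveolae are small pits of the cell membrane, frequent in endothelium, that are built from caveolins and cavins. *cav1* (ENSDARG00000103747) was at 134, 115, 179, 94.5 and 100.4 CPM in controls and at 203, 243, 149 and 224 CPM in mutants. Only control 3 exceeded a mutant library, the lowest of them. Control libraries had a mean of 124 CPM (SD 33.9, n = 5) and mutants one of 205 CPM (SD 40.8, n = 4). The row, at 0.72 on the log2 scale (SE 0.21), was not called (edgeR adjusted p = 0.0896). Its adjusted p was 0.0264 under DESeq2 and 0.0448 under edgeR's likelihood ratio test. The less abundant *cavin2* row (ENSDARG00000027611) was at 5.50 to 16.3 CPM in controls and 12.6 to 19.4 CPM in mutants, with a log2 fold change of 0.76 (edgeR adjusted p = 0.185). The more abundant one (ENSDARG00000071196) was at 165 to 319.5 CPM in controls and 278 to 334 CPM in mutants, with a log2 fold change of 0.18. Both *cavin1* rows were near 0, at 0.01 and -0.04.

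The diaphragm that closes caveolae and fenestrae is made of Plvap. *plvapb* (ENSDARG00000045003), the 1 member symbol placed on the chromosome of *vegfd* in the GRCz12tu annotation, was at 35.8, 13.3, 24.0, 16.04 and 18.3 CPM in controls and at 13.7, 16.6, 37.4 and 21.2 CPM in mutants. Its libraries spread over a similar range in both genotypes (log2 fold change 0.05, SE 0.35, 95% interval -0.72 to 0.81, edgeR adjusted p = 0.957). *plvapa* was at 17.6 to 49.2 CPM in controls and 10.3 to 44.3 CPM in mutants. Of the 38 member symbols in that annotation, 0 lay on the chromosome of *vegfc*.

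Among ligands and receptors, 6 of 7 rows had a fitted change below 0, against 8500 of all 16575 rows, and none was called. Here *efnb2* was counted with both of its rows. Apelin receptors guide endothelial and early cardiac cells. *aplnrb* (ENSDARG00000036670) was at 19.99, 13.5, 17.7, 22.0 and 49.5 CPM in controls 1 to 5 and at 9.84, 3.71, 9.76 and 5.79 CPM in mutants 6 to 9. Every mutant library lay below every control. Controls averaged 24.5 CPM (SD 14.3, n = 5) and mutants 7.27 CPM (SD 3.04, n = 4), a difference of -1.76 on the log2 scale (SE 0.42). Its edgeR adjusted p of 0.0502 missed the threshold of 0.05. The adjusted p ranged from 0.000655 under DESeq2 to 0.131 without mutant library 9. It was 0.0422 without control 2, and 0.0619 without control 5, the highest control, where the log2 fold change was -1.33.

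The second receptor *aplnra* was at 2.75, 2.79, 2.86, 3.55 and 14.5 CPM in controls and at 3.71, 1.76, 2.45 and 2.29 CPM in mutants. Control 5 was again the highest, and the remaining controls overlapped the mutants. Their ligand *apln* was at 51.6 to 107.9 CPM in controls and 82.9 to 97.8 CPM in mutants, with a log2 fold change of 0.29 (95% interval -0.22 to 0.79). The log2 ratio of *aplnra* to *aplnrb* CPM was -2.86 to -1.77 in controls and -1.99 to -1.08 in mutants, with overlap.

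The receptor *acvrl1*, known as ALK1 in mammals, takes circulating bone morphogenetic proteins as ligands and restrains arterial growth. It was at 20.6, 22.8, 24.1, 19.1 and 31.0 CPM in controls and at 19.8, 10.8, 15.2 and 16.4 CPM in mutants. Mutant 6 was the only mutant library above a control. The fitted change was -0.59 (log2, SE 0.20, edgeR adjusted p = 0.129), and the row was not called. Of the arterial and venous markers, *ephb4a* was at 23.4 to 38.1 CPM in controls and 21.6 to 28.5 CPM in mutants (log2 fold change -0.33). The *efnb2* rows had log2 fold changes of -0.72 (ENSDARG00000020164) and -0.53 (ENSDARG00000074050). Without control 5, which was the highest library for the first row at 17.3 CPM, these were -0.33 and -0.49. The arterial to venous log2 ratio overlapped between genotypes for both, with medians of -1.80 in controls and -2.20 in mutants for the first row and of -0.47 and -0.99 for the second.

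The other endothelial proteins went both ways. *egfl7* (ENSDARG00000100657), a secreted protein of growing vessels, was at 58.9, 96.7, 39.6, 36.9 and 18.4 CPM in controls and at 138, 117, 62.6 and 67.9 CPM in mutants. Control 2 was the only control above 2 of the mutants. Its fitted change of 0.95 (log2, SE 0.42) was not called (edgeR adjusted p = 0.232). *dusp5*, a phosphatase that turns off ERK, had a change of 0.79 and overlapped between genotypes.

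Both *tspan18* rows, for a membrane protein of the tetraspanin family, had unadjusted p-values under 0.05 in opposite directions. The first (ENSDARG00000015015) was at 18.6, 15.7, 9.82, 16.2 and 12.1 CPM in controls and at 10.05, 9.36, 9.33 and 9.60 CPM in mutants. The second (ENSDARG00000056656) was at 12.9, 3.70, 7.41, 6.85 and 9.45 CPM in controls and at 13.4, 11.8, 21.0 and 13.3 CPM in mutants. Control 3 of the first row fell among the mutants, and control 1 of the second lay above mutant 7. Their log2 fold changes were -0.60 (edgeR adjusted p = 0.111) and 0.88 (edgeR adjusted p = 0.147), and neither row was called.

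Little difference was fitted for *clec14a*, a surface lectin of endothelium (-0.14), *ecscr*, a regulator of endothelial migration (0.09), and *she*, an adaptor protein (-0.03). The row of *nos2*, an inducible nitric oxide synthase, held 2 to 15 counts in mutants, too few for a stable value.

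Libraries of 1 genotype differed widely for many members, and more among controls than among mutants. The coefficient of variation was larger in controls than in mutants for 29 of the 41 rows (70.7%), with medians of 39.3% and 23.4%. Over all rows the share was 59.1%, with medians of 28.0% and 23.4%. Without control 2 the share was 63.4% of members and 50.2% of all rows. The control medians were then 30.4% for members and 24.1% for all rows. Control library 2 was the highest of all 9 libraries for 9 members, namely *esam*, *icam3*, *sele*, *thbd*, *fli1*, *mef2a*, *clec14a*, *ecscr* and *she*, and the lowest for 5, among them *cdh5*, *nfatc1* and *plvapb*. These shares of 22.0% and 12.2% compare with 17.5% and 19.5% of all rows, so extreme values in this library were not limited to endothelial genes. It exceeded every other library more than 2-fold for 3 members (7.3%), against 1.51% of all rows. Its level of *ecscr* was 46.3 CPM, against 12.8 to 17.3 CPM in the other controls. For *she* it was 76.5 CPM, against 20.3 to 29.7 CPM.

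Control library 5 was the lowest of all 9 for 14 members (34.1%, against 14.3% of all rows) and the highest for 8 (19.5%, against 15.9%). Those at their lowest included *vwf*, *f8*, *erg*, *fli1*, *klf2a*, *klf2b*, *apln*, *egfl7* and *dusp5*. Those at their highest included *aplnra*, *aplnrb*, *acvrl1*, *ephb4a* and *tal1*. Of the 12 rows with an unadjusted p-value under 0.05, 6 were among these (*vwf*, *f8*, *klf2a*, *egfl7*, *aplnrb* and *acvrl1*). In each of the 6, control 5 was extreme on the side away from the mutants. That it was the control farthest from them follows from how the 6 were picked. Without controls 2 and 5 together, a comparison added after the values were seen, *vwf* remained called (log2 fold change 1.14, edgeR adjusted p = 0.0410) and no other member was.

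**Figure D3:**
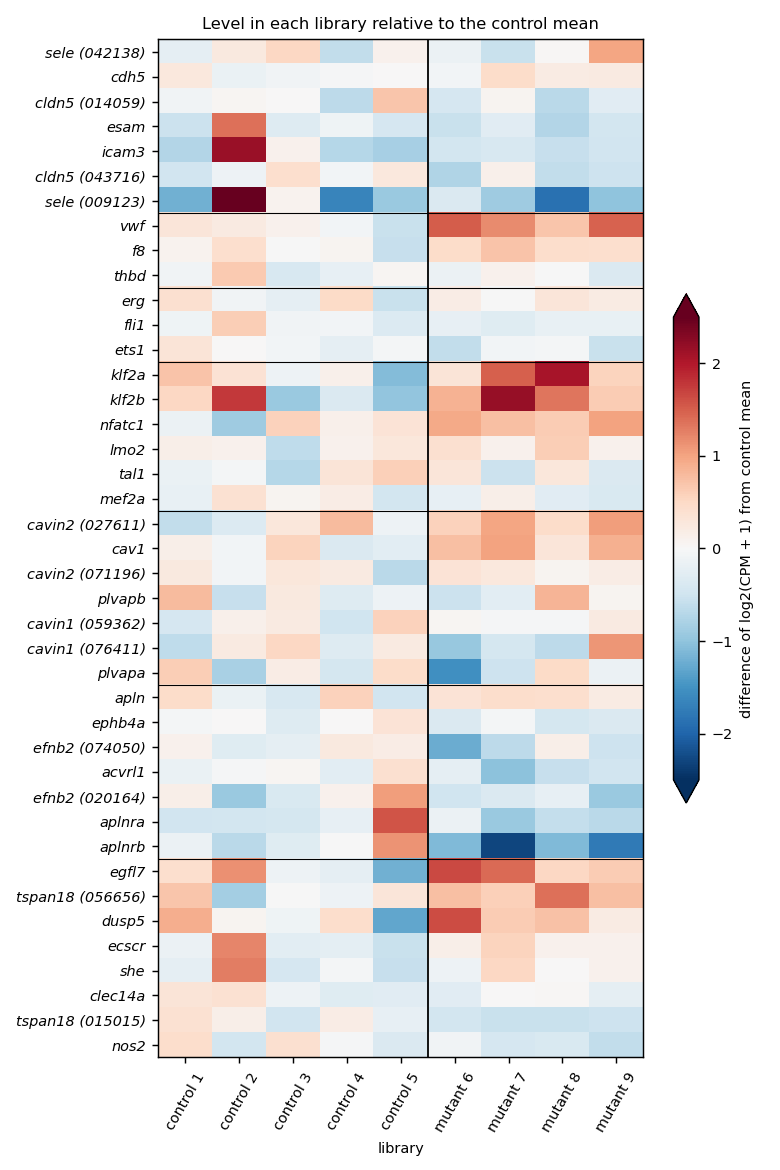
Level of each of the 41 rows in each library as the difference of log2(CPM + 1) from the mean of the controls, ordered by role. The column of control 2 is red for *sele*, *icam3*, *esam*, *ecscr* and *she*, the column of control 5 is red for *aplnra* and *aplnrb*, and the rows of *vwf*, *cav1* and *nfatc1* are red in all mutant columns.

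A second list of 32 endothelial symbols outside the members led to 31 rows. One of them was called, *robo4*, a guidance receptor of endothelium, and 0 were higher, a share of 3.23% beside the 3.34% of all rows. The median log2 fold change was -0.05. At an unadjusted p-value under 0.05 there were 7 rows (22.6%, against 20.9% of all rows), 2 higher and 5 lower. Without overlap between genotypes were 2 rows (6.45%, against 10.5% of all rows), *robo4* and *hey2*, both lower in mutants. *hey2* was at 8.18 to 17.6 CPM in controls and 2.38 to 7.98 CPM in mutants (edgeR adjusted p = 0.185). *robo4* was at 8.07, 6.36, 15.1, 12.8 and 10.8 CPM in controls and at 2.21, 6.03, 3.24 and 2.73 CPM in mutants. Mutant 7 came close to control 2, without overlap. It fell by 1.58 on the log2 scale (SE 0.34, edgeR adjusted p = 0.0380). The call was lost in 6 of the 9 fits that left out a library, with an adjusted p of up to 0.0988. The receptors of Vegfa overlapped between genotypes, with log2 fold changes of 0.21 for *kdrl*, 0.05 for *kdr* and 0.12 for *flt1*. So did the angiopoietin receptor *tek* (0.14) and the related *tie1* (-0.17).

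Marker lists of other cells of the ventricle moved with genotype in part. The 9 cardiomyocyte rows summed to between 75757 and 85615 CPM in controls and between 62428 and 65721 CPM in mutants, without overlap, while 0 of them were called. The CPM given here are scaled by TMM and are not plain shares of a library total. Over all rows, the median log2 fold change came to -0.014 under TMM, -0.018 under RLE and -0.019 unscaled. What part the lower cardiomyocyte sum had in the endothelial values was not tested. Of 12 rows of mural and smooth muscle cells, 9 had fitted changes below 0 and 3 above, with a median of -1.04 on the log2 scale. The share called was 25%, beside 3.34% of all rows. In this list *rgs5* (ENSDARG00000002644) and *myh11* (ENSDARG00000009782) fell, with log2 fold changes of -1.69 (edgeR adjusted p = 0.0403) and -1.38 (edgeR adjusted p = 0.0374). One *tagln* row (ENSDARG00000045408) rose, by 1.41 (edgeR adjusted p = 0.0407). These calls were lost in 7, 6 and 9 of the 9 fits that left out a library.

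Of 7 lymphatic rows, *flt4* fell by 2.98 on the log2 scale (edgeR adjusted p = 0.0181), *stab2* fell by 2.96 (edgeR adjusted p = 0.0200) and *mrc1* rose by 3.65 (edgeR adjusted p = 0.00330). The paper also used *flt4* transcripts to show blood vessels in hearts of both genotypes, so this row is not specific to lymphatics. The call of *flt4* was lost without mutant 6 or 7 and that of *stab2* without mutant 8, and each held at most 168 counts in a library. The fitted changes of 5 of the 7 rows were below 0, with a median of -1.32, while the sum of the list was 86.5 to 132 CPM in controls and 146 to 176 CPM in mutants. Most of that sum came from *stab1* and *prox1*. The paper reports no lymphatics on the ventricle of these mutants, so this sum is no measure of lymphatic vessels. Both *flt4* and *stab2* were lower in every mutant library than in any control. *flt4* was at 1.72 to 4.14 CPM in controls and 0.127 to 0.756 CPM in mutants. *stab2* held 1.86 to 5.19 CPM in controls and 0.105 to 0.700 CPM in mutants. Both *stab1* and *mrc1* were higher in every mutant library than in any control. *stab1* was at 24.1 to 60.2 CPM in controls and 68.2 to 103 CPM in mutants. *mrc1* held 0.457 to 3.09 CPM in controls and 14.4 to 30.4 CPM in mutants. *stab1*, a scavenger receptor, averaged 42.1 CPM in controls and 85.1 CPM in mutants (edgeR adjusted p = 0.0669), and *prox1* averaged 54.2 CPM and 49.97 CPM. *lyve1a* and *lyve1b* had fitted changes of -1.32 and -2.27, and neither was called. The summed level of the second endothelial list was 1082 to 1956 CPM in controls and 1294 to 1671 CPM in mutants. Sums of the erythrocyte and leukocyte lists overlapped too, with 0 rows called in each, and the fibroblast and epicardium list had 1 called row, *tbx18* (log2 fold change -1.58, edgeR adjusted p = 0.0494), whose call was lost in 8 of the 9 fits that left out a library.

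**Figure D4:**
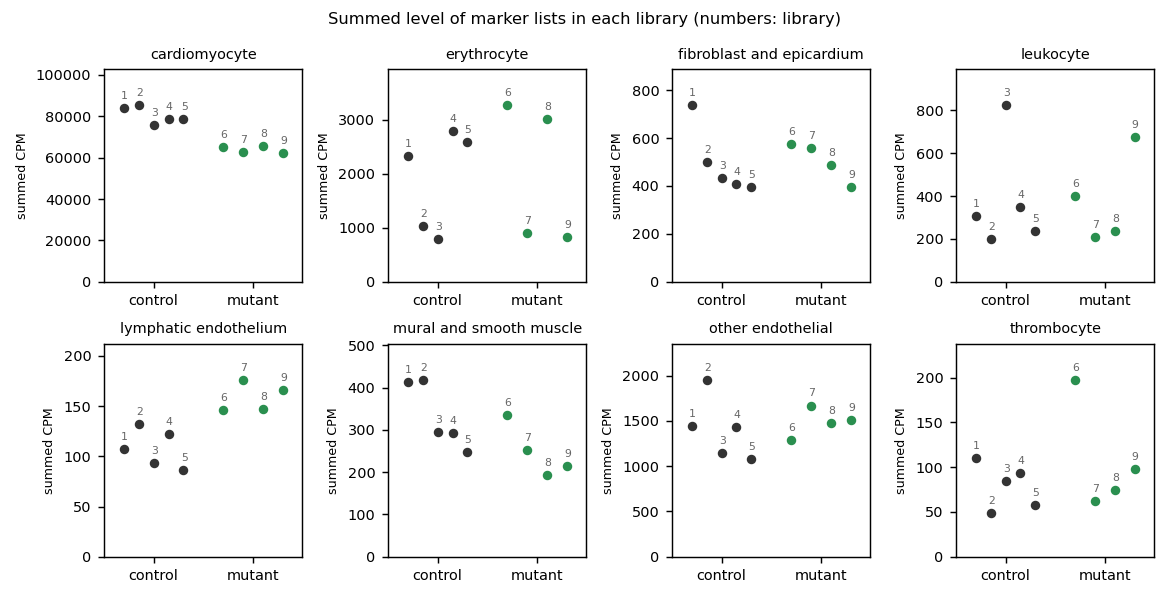
Summed CPM of 8 marker lists in each control library (1 to 5) and mutant library (6 to 9), each axis starting at 0. The cardiomyocyte sum is lower in all mutants than in any control. The lymphatic sum is higher in all mutants, although 5 of its 7 rows have fitted changes below 0. Most of it is *stab1* and *prox1*, and *stab1* and *mrc1* are each higher in all mutants than in any control. *flt4* and *stab2* are each lower in all mutants than in any control. The other 6 sums overlap between genotypes.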

How the data were processed

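The authors trimmed reads with Skewer, aligned them with STAR 2.5.2a to GRCz11, counted strand-matched reads per Ensembl gene in featureCounts 1.5.0 at a mapping quality of 20 or more, and kept genes whose mean count was 10 or more. The deposited values are raw counts per gene, 1 column per library, with 23302636 to 33496006 counts each. Low-quality alignments were left out, so near-identical copies lose counts. A symbol was found for 15812 of 16575 identifiers (95.4%).

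Counts were scaled by TMM and fitted with edgeR 4.0.16 (quasi-likelihood F test, two-sided, legacy form, no covariate) under R 4.3.3, over all 16575 rows with Benjamini-Hochberg adjustment and a threshold of 0.05. Standard errors are the fitted change divided by root F. Alternatives were the likelihood ratio test, DESeq2 1.42.0, limma-voom (limma 3.58.1), RLE or no scaling, a minimum mean count of 50, and leaving out libraries. The fit was also run on simulated counts with 200 changed genes. These counts were drawn independently for each gene and library at the fitted spread. The run therefore does not address extremes shared by many genes of a library, as in control libraries 2 and 5. Within-genotype pairs of libraries differed far beyond sampling noise (chi-square per degree of freedom at least 43.0).

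Members and lists were chosen with earlier results of these data known. Outside the members, *robo4* alone is given with its value in every library, and other called rows have ranges, means or fitted changes. Values in every library are given for called members, members without overlap and set markers (*cdh5*, *vwf*, *erg*, *fli1*, *klf2a*, *klf2b*, *plvapb*, *nfatc1* and *cav1*). They are also given for *f8*, *sele*, *icam3*, *aplnra*, *acvrl1*, *egfl7* and *tspan18*, chosen after their values were seen. No sequence is shown.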

Additional observations from a re-analysis of the deposited data

Results flagged for a closer look

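Of 116 groups of libraries examined by Dixon's rule for a value far from the rest, 14 held one. A rate of 5% would give 5.8, but only if values were normally distributed and groups independent. The groups share the same libraries, and the distribution of CPM was not tested, so no excess over chance can be read from these counts. Control library 2 held 6 of them, each as the highest control: *sele* (ENSDARG00000009123) at 892 CPM, *icam3* at 349 CPM, *esam* at 75.7 CPM, *she* at 76.5 CPM, *ecscr* at 46.3 CPM and *fli1* at 122 CPM. Control library 5 was the highest control for *aplnra*, at 14.5 CPM, and for *aplnrb*, at 49.5 CPM. Control library 3 was the lowest control for *lmo2*, at 5.77 CPM, and the highest for the summed leukocyte list, at 826 CPM. Among mutants, library 7 was highest for *f8*, at 2999 CPM, and for *ecscr*, at 28.8 CPM. Library 8 was highest for *tspan18* (ENSDARG00000056656), at 21.0 CPM, and library 9 for *cavin1* (ENSDARG00000076411), at 15.6 CPM.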

How the results depend on the processing

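Among members, *vwf* was called under every alternative except the fit without mutant library 9 (adjusted p-value 0.0505). Called rows numbered 3 higher and 2 lower under DESeq2 (*vwf*, *cav1*, *klf2a*, *aplnrb* and *tspan18* ENSDARG00000015015) and 2 higher and 1 lower under the likelihood ratio test. *aplnrb* made 1 lower call under limma-voom, with a mean of at least 50 counts, and without control library 2. With a library left out, 0 to 1 rows were higher and 0 to 1 lower. The median of the members ranged from -0.16 to 0.011. Over all rows, DESeq2 called 929 higher and 737 lower (no adjusted p-value for 101 rows), the likelihood ratio test 817 and 540, the fit without control libraries 2 and 5 together, chosen after seeing the data, 153 and 105, and fits with a library left out 136 to 322 and 60 to 170.

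Of 284 recomputed member changes under other settings, 10 had the opposite sign, all for rows that were not called. Under limma-voom these were *she* (0.30), *tal1* (0.0050) and *thbd* (0.11). Without control libraries 2 and 5 they were *cavin1* ENSDARG00000076411 (0.10), *cavin2* ENSDARG00000071196 (-0.028), *erg* (-0.073), *plvapb* (-0.19), *she* (0.38), *tal1* (0.094) and *thbd* (0.20). With a library left out, the sign changed for 9 rows. Their log2 fold changes ranged from -0.11 to 0.18 (*cavin1* ENSDARG00000059362), -0.86 to 0.20 (*cavin1* ENSDARG00000076411), -0.57 to 0.60 (*sele* ENSDARG00000042138), -0.26 to 0.081 (*tal1*), -0.043 to 0.57 (*ecscr*), -1.23 to 0.0090 (*icam3*), -0.32 to 0.31 (*plvapb*), -0.18 to 0.47 (*she*) and -0.33 to 0.090 (*thbd*). The cause was not tested.

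No paired analysis was possible because the sources name no pairing of control and mutant libraries. Depth limits *nos2*, at 2 to 15 counts in mutants, and the rows *cldn5* ENSDARG00000043716 and *sele* ENSDARG00000042138.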
